A study of Mus musculus with 8 samples.

Results

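The genes described here are the p53 target and growth arrest genes Cdkn1a, Mdm2, Ccng1, Bax, Gadd45a, Gadd45b, Btg2, Sesn1, Trp53inp1 and Phlda3. Their members were all probe sets of the array that the platform annotation gives to one of these 10 genes. A probe set is a group of short oligonucleotides that together read one mRNA. There were 21 such probe sets among 45037 that are not array controls, and each of the 21 carried 1 gene symbol. Cdkn1a had 2, Mdm2 3, Ccng1 3, Gadd45a 1, Gadd45b 3, Btg2 2, Sesn1 4, Trp53inp1 2 and Phlda3 1. Bax had 0 annotated probe sets and is not analysed here, so 9 of the 10 genes were measured, among 18193 genes in all.

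Livers came from 8 young male mice, each hybridized to 1 Affymetrix mouse expression array. In the 4 txnrd1 cond/-;albCre1 mice (animals 69, 72, 73 and 81) one txnrd1 allele was null and the other conditional, and Cre recombinase made under the albumin promoter disrupted the conditional allele in hepatocytes, so that hepatocytes were txnrd1-/-. The 4 control mice (animals 70, 71, 80 and 82) were txnrd1 cond/+;albCre0, with a wild-type allele, a conditional allele and no Cre. The genotypes therefore differed in the null allele and in the Cre transgene as well as in the disrupted allele, and the effects of these cannot be told apart. The other cells of the liver do not make albumin and keep the conditional allele, and the RNA is of whole liver. All mice were singly housed for 10 days and harvested at the same time of the afternoon.

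p53 is a transcription factor held at a low level by Mdm2, a ubiquitin ligase whose own gene p53 activates. When DNA is damaged or the cell is otherwise stressed, p53 is stabilised and activates genes that halt the cell cycle, repair DNA or start apoptosis, and Cdkn1a is the best known of these. Several of the same genes, among them Btg2, Gadd45a and Gadd45b, also respond to growth factors, cytokines and stress kinases without p53. Thioredoxin reductase 1, the product of txnrd1, passes electrons from NADPH to thioredoxin, which reduces ribonucleotide reductase and oxidised cysteines in proteins. The comparison asks whether mRNAs of these genes differed in livers whose hepatocytes had lost that enzyme.

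The deposited values were linear ratios, each relative to roughly the median liver for that probe set. A value of 1 is therefore about the middle of the 8 livers, and levels of different genes cannot be compared. As a check of the genotype, Nqo1, a quinone reductase that Nrf2 activates, averaged a ratio of 1.91 ± 0.546 in txnrd1-/- livers and 0.322 ± 0.0973 in control livers (SD, n = 4 each; adjusted p = 0.0058 by limma). The targeted gene itself gave no check. Of its 3 probe sets 1 was higher in txnrd1-/- livers, at 1.10 to 2.00 against 0.410 to 0.900 in control livers, and the others were lower on average, at 0.598 to 0.997 against 0.993 to 1.51 and at 0.755 to 0.965 against 1.03 to 1.33. The labels and the methods do not place these probe sets relative to the disrupted exons.

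None of the 9 measured member genes passed a test between the genotypes. At the thresholds of the study (1.5-fold and p of at most 0.05, taken as unadjusted), limma called 0 of 21 member probe sets, against a background of 0.562% of all probe sets. After Benjamini-Hochberg adjustment over all probe sets the count was also 0 of 21, against 0.0266%, and each adjusted p was 1.00. At an unadjusted p of at most 0.05 with no minimum fold the count was 0 of 21, against 1.82%, and in 0 of 21 did the genotypes fail to overlap, against 1.46%. An exact permutation test of each probe set (2-sided, 70 assignments) gave 0 of 21 at or under 0.05. The smallest member p was 0.229, where the smallest possible was 0.0286. As genes, each the mean of its probe sets, 0 of 9 passed the thresholds of the study (background 0.654%) and 0 of 9 the adjusted threshold (background 0.0824%). At an unadjusted p of at most 0.05 the count was 0 of 9, against 2.32% of all genes, and in 0 of 9 did the genotypes fail to overlap, against 1.71%.

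The estimates lay on both sides of 0. Of the 21 log2 fold changes (txnrd1-/- over control) 11 were positive and 10 negative, with a median of 0.07 against 0.00 over all probe sets and a range of -0.60 to 0.38. The precision differed widely between genes. For 14 of the 21 the 95% interval excluded a 2-fold difference in either direction, and for 6 it lay within 1.5-fold. The remaining intervals, the widest being those of Btg2, leave a 2-fold difference within their bounds. In whole liver, fewer cells of a type and less RNA per cell cannot be told apart.

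**Figure D1:**
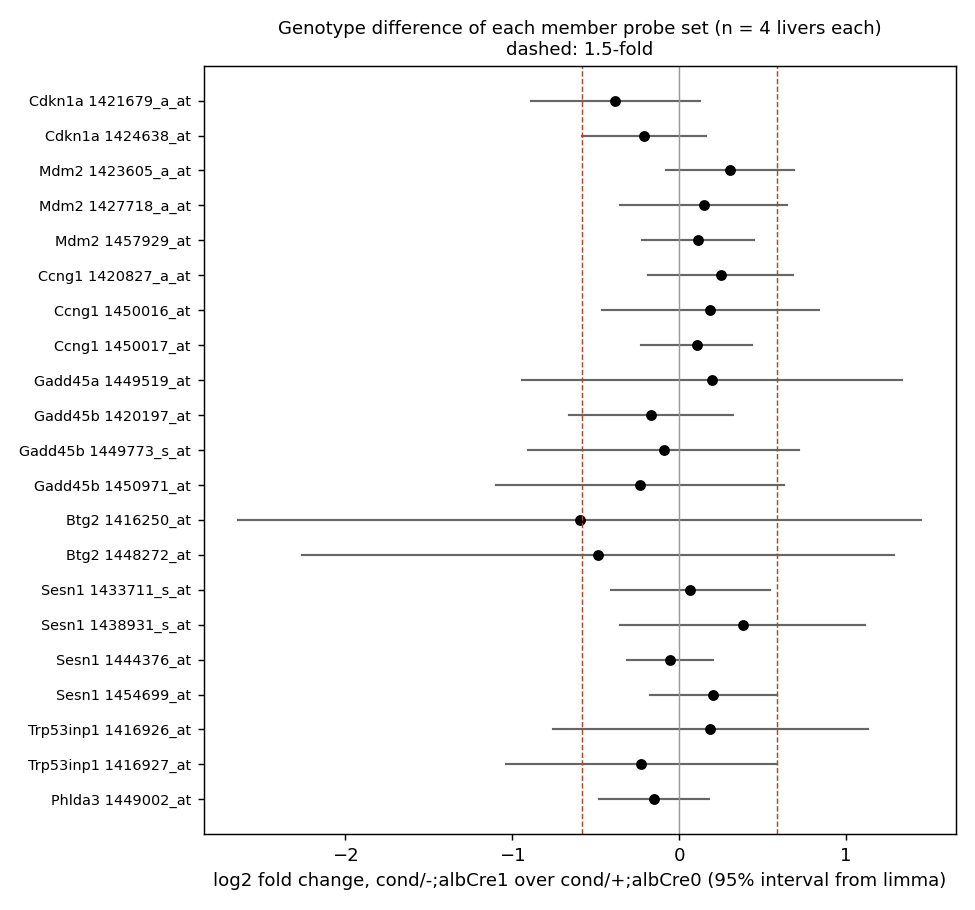
Log2 fold change of each of the 21 probe sets, txnrd1 cond/-;albCre1 over cond/+;albCre0, with its 95% interval from limma (n = 4 livers each) and dashed lines at 1.5-fold. Every interval includes 0, and those of Btg2 are the widest.

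Cdkn1a encodes p21, an inhibitor of cyclin-dependent kinases and the main means by which p53 stops the cell cycle. The gene lies on chromosome 17, at 29090979 to 29100722 of mouse build GRCm38.p6. Its promoter is shown because it is the gene of the group most closely tied to p53, with the p53 half-sites found by letter match in capitals (RefSeq, GRCm38.p6, plus strand, chr17:29090886-29090957, ending 22 bases before the start).

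Cdkn1a: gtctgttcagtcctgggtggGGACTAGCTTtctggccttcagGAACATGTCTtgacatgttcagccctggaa

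A letter match is a description of the sequence and not a measured binding site. The p53 half-site matched on either strand in 8.36% of 32851 promoter windows of 300 bases. Among members it matched in 6 of 11 windows, those of 6 of the 9 member genes that have one here (Bax, Ccng1, Cdkn1a, Gadd45a, Mdm2 and Sesn1). A pair of half-sites with no base between them matched in 0.00913% of windows and in 0 of the 11. The search allowed no mismatched letter. In the Cdkn1a stretch above, the 10 bases directly after the second half-site differ from the motif in the first letter only. They were therefore left in lower case, and no pair was counted there. The core of the antioxidant response element, TGACNNNGC on either strand, matched in 12.4% of windows and, among the members, in a window of Cdkn1a alone. That match is not in the stretch printed above. It lies 27 to 35 bases after another start of Cdkn1a, in the window at 29093519 to 29093818. Trp53inp1 has no window in the table used.

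Neither probe set of Cdkn1a passed a test between the genotypes. The ratios of 1421679_a_at were 0.898, 0.758, 1.02 and 1.09 in txnrd1-/- livers (animals 69, 72, 73 and 81), against 1.41, 0.879, 1.80 and 0.986 in control livers (animals 70, 71, 80 and 82). Those of 1424638_at were 0.981, 1.04, 0.860 and 1.02 in txnrd1-/- livers, against 1.23, 0.946, 1.49 and 0.933 in control livers. Control animals 80 and 70 had the highest values by both probe sets, while the other 2 control livers lay among the txnrd1-/- livers. As a gene, Cdkn1a was at 0.814-fold in txnrd1-/- over control livers (95% interval 0.615 to 1.08, log2 fold change -0.30 ± 0.18 SE). Without control animal 71 it was -0.42, which reached an unadjusted p of at most 0.05 by limma but stayed under 1.5-fold. Pcna, a sliding clamp of DNA replication that p21 binds, differed by -0.08 ± 0.31 (SE). The 6 measured markers of proliferating cells had a median log2 fold change of -0.03, with 0 called.

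Btg2 is an antiproliferative gene that p53, growth factors and other stimuli activate, and its protein recruits the CCR4-NOT deadenylase to mRNAs. It lies on chromosome 1, at 134074865 to 134079155 of GRCm38.p6. Its promoter is shown because Btg2 was the most variable member, with the cAMP response element TGACGTCA in capitals (RefSeq, GRCm38.p6, minus strand, chr1:134079284-134079351).

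Btg2: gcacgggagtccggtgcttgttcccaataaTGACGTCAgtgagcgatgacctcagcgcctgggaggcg

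The element matched in 1.79% of the 32851 windows and, among the members, in Btg2 alone. The CArG box, the motif of serum response factor, matched in 1.63% of windows and in 0 members, which says only that these letters are not in these windows.

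Btg2 had the lowest estimate of the group and by far the widest spread. The ratios of 1416250_at were 2.86, 1.36, 0.624 and 0.265 in txnrd1-/- livers (animals 69, 72, 73 and 81), against 7.21, 0.642, 1.68 and 0.433 in control livers (animals 70, 71, 80 and 82). Those of 1448272_at were 2.73, 1.32, 0.676 and 0.528 in txnrd1-/- livers, against 6.99, 0.675, 2.02 and 0.519 in control livers. Each genotype thus held livers both well above and well below 1, and animals 70 and 69, of opposite genotype, were the highest of all by both probe sets. By 1416250_at the highest liver was 27.2-fold above the lowest, and by 1448272_at 13.5-fold. The mean ratio of 1416250_at was 1.28 ± 1.15 in txnrd1-/- livers and 2.49 ± 3.19 in control livers (SD, n = 4 each). As a gene, Btg2 was at 0.687-fold (95% interval 0.183 to 2.58, log2 fold change -0.54 ± 0.85 SE), so neither a 2-fold decrease nor a 2-fold increase could be told from no difference. The direction rested on control animal 70, without which the log2 fold change of the gene was 0.23.

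Gadd45a, a small nuclear protein that binds p21 and PCNA and activates stress kinases, was read by 1 probe set (chromosome 6, 67035096 to 67037407). Its ratios were 0.787, 0.606, 1.15 and 2.59 in txnrd1-/- livers (animals 69, 72, 73 and 81), against 1.93, 0.426, 1.05 and 0.958 in control livers (animals 70, 71, 80 and 82). The highest value was that of txnrd1-/- animal 81 and the lowest that of control animal 71, and the other livers of each genotype overlapped. The mean was 1.28 ± 0.902 in txnrd1-/- livers and 1.09 ± 0.622 in control livers (SD, n = 4 each), with an interval for the fold of 0.520 to 2.52. Its sign also hung on single livers, with a log2 fold change of -0.22 without animal 81 and 0.53 without animal 70.

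Gadd45b, a paralogue induced by NF-kB and during liver regeneration, was read by 3 probe sets (chromosome 10, 80930091 to 80932204). By 1450971_at its ratios were 1.25, 1.14, 0.861 and 0.716 in txnrd1-/- livers, against 1.74, 0.826, 2.06 and 0.564 in control livers. By 1449773_s_at they were 1.33, 0.937, 0.962 and 1.04 in txnrd1-/- livers, against 1.80, 0.628, 1.99 and 0.719 in control livers. By these 2 probe sets the control livers fell into a high pair (animals 70 and 80, which were also high for Cdkn1a) and a low pair (71 and 82), on either side of most txnrd1-/- livers. The third probe set, 1420197_at, had 0.873, 0.753, 0.928 and 1.11 in txnrd1-/- livers, against 1.06, 0.654, 1.32 and 1.19 in control livers. It did not divide the control livers in that way, since animal 82 was above animal 70. The gene was at 0.892-fold (95% interval 0.578 to 1.37).

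**Figure D2:**
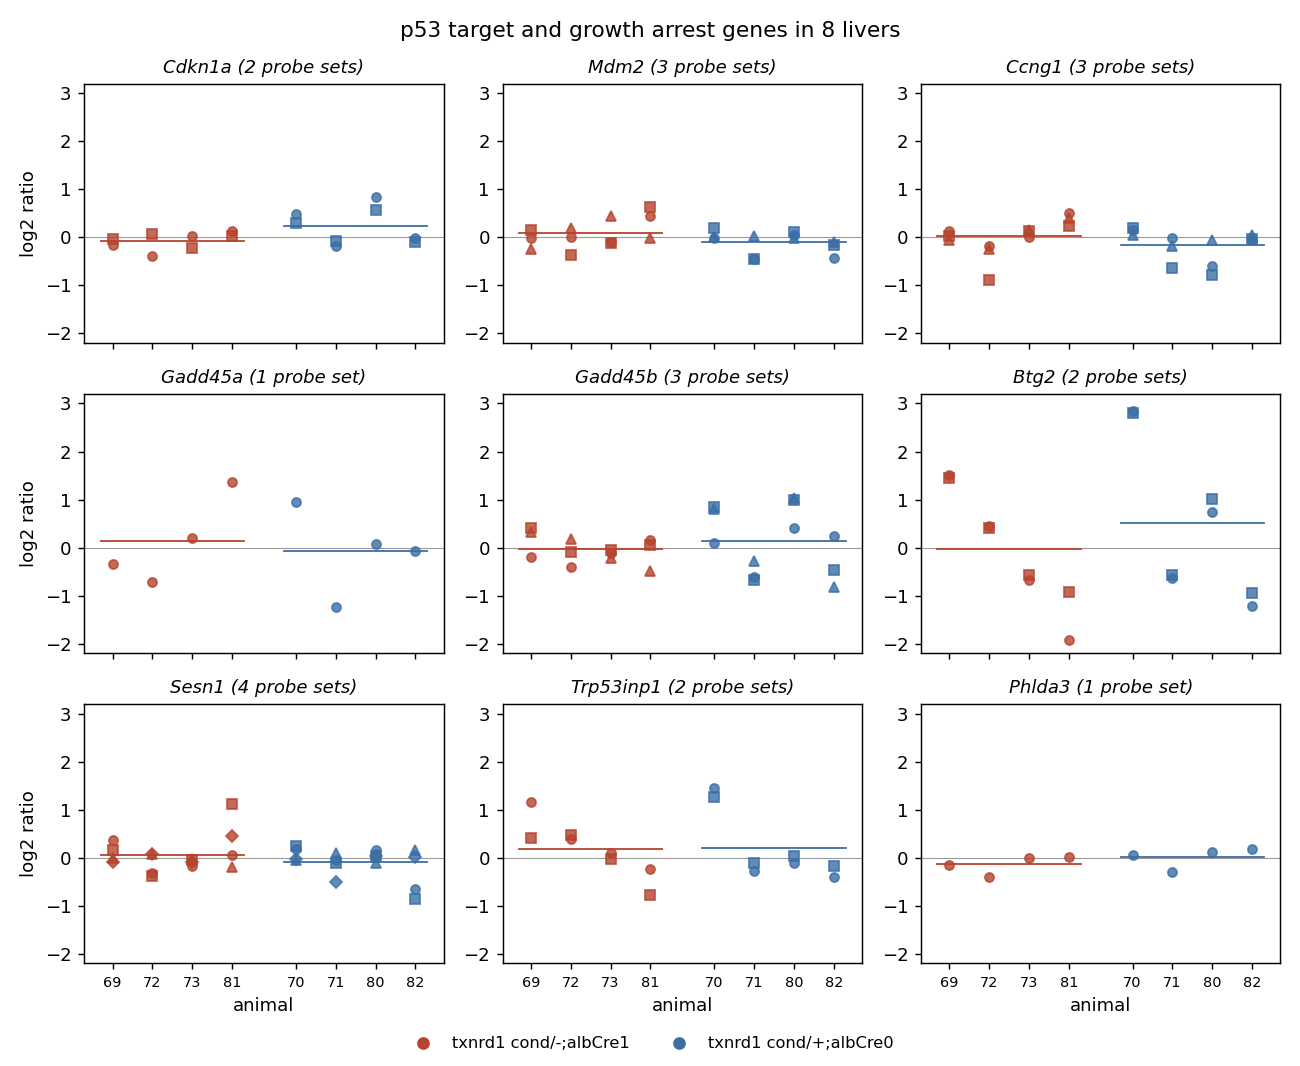
Log2 ratio (y axis) of every probe set of the 9 measured genes in each liver (x axis, animal number), with txnrd1 cond/-;albCre1 in red on the left and cond/+;albCre0 in blue on the right. Symbols mark probe sets and horizontal lines the mean of each genotype; Btg2 reaches 2.83 in animal 70 and -1.42 in animal 81 as the mean of its probe sets.

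Mdm2 (chromosome 10, 117688875 to 117710758) carries the feedback that limits p53, and it gave the smallest p of the 21 probe sets. The ratios of 1423605_a_at were 0.994, 1.00, 0.936 and 1.36 in txnrd1-/- livers (animals 69, 72, 73 and 81), against 0.990, 0.726, 1.03 and 0.738 in control livers (animals 70, 71, 80 and 82). Control animals 71 and 82 lay below every txnrd1-/- liver, and control animals 70 and 80 lay among them. The mean was 1.07 ± 0.194 in txnrd1-/- livers and 0.872 ± 0.162 in control livers (SD, n = 4 each), a 1.23-fold difference with an interval of 0.947 to 1.61 (exact permutation p = 0.229, 2-sided). The other probe sets had log2 fold changes of 0.15 ± 0.22 and 0.11 ± 0.15 (SE). As a gene, Mdm2 was at 1.14-fold (95% interval 0.926 to 1.40).

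Ccng1 (chromosome 11, 40748552 to 40755309) encodes cyclin G1, a p53 target that brings protein phosphatase 2A to Mdm2. Its 3 probe sets had log2 fold changes of 0.25, 0.19 and 0.10, and none passed a test. By 1420827_a_at the ratios were 1.10, 0.887, 1.00 and 1.42 in txnrd1-/- livers, against 1.10, 0.996, 0.662 and 0.957 in control livers. By 1450016_at they were 1.02, 0.539, 1.09 and 1.18 in txnrd1-/- livers, against 1.15, 0.646, 0.581 and 0.979 in control livers. By 1450017_at they were 0.968, 0.848, 1.11 and 1.32 in txnrd1-/- livers, against 1.03, 0.879, 0.962 and 1.03 in control livers. Animal 81 was highest by all 3. Control animal 80 was low by 1420827_a_at and 1450016_at but at 0.962 by 1450017_at. The lowest liver of all by 1450016_at and by 1450017_at was txnrd1-/- animal 72. The gene was at 1.13-fold (95% interval 0.845 to 1.52).

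Sesn1, a sestrin that restrains mTORC1, was read by 4 probe sets (chromosome 10, 41810574 to 41908436). The ratios of 1438931_s_at, the highest estimate of the group, were 1.12, 0.764, 0.965 and 2.16 in txnrd1-/- livers (animals 69, 72, 73 and 81), against 1.19, 0.923, 1.03 and 0.550 in control livers (animals 70, 71, 80 and 82). Animal 81 stood above all others here and control animal 82 below all others, with the remaining livers overlapping. The other 3 probe sets of Sesn1 had log2 fold changes of -0.06 to 0.20. The flattest, 1444376_at, varied only 1.27-fold over the 8 livers. By the naming of the array, the suffix _s_at of 2 Sesn1 and 1 Gadd45b probe sets marks probes that can match transcripts of more than one gene. The gene was at 1.11-fold (95% interval 0.890 to 1.38).

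Trp53inp1, a nuclear stress protein that promotes p53-dependent cell death and autophagy, gave estimates of opposite sign by its 2 probe sets (chromosome 4, 11156441 to 11174379). The ratios of 1416926_at were 2.24, 1.31, 1.07 and 0.856 in txnrd1-/- livers (animals 69, 72, 73 and 81), against 2.76, 0.828, 0.925 and 0.756 in control livers (animals 70, 71, 80 and 82). Those of 1416927_at were 1.34, 1.40, 0.977 and 0.585 in txnrd1-/- livers, against 2.40, 0.925, 1.02 and 0.883 in control livers. Control animal 70 was highest by both, and txnrd1-/- animals 69 and 72 came next. The log2 fold changes were 0.19 ± 0.42 and -0.23 ± 0.36 (SE), and that of the gene -0.02 (interval of the fold 0.544 to 1.79).

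Phlda3, a PH-domain protein that opposes Akt at the membrane (chromosome 1, 135766085 to 135769134), had ratios of 0.902, 0.754, 0.998 and 1.01 in txnrd1-/- livers, against 1.05, 0.809, 1.09 and 1.13 in control livers. Each genotype had 1 low liver, animals 72 and 71, and the others lay between 0.902 and 1.13. The fold of 0.900 had an interval of 0.723 to 1.12.

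The spread between livers of one genotype set these genes apart from each other. The SD of the log2 ratio within a genotype had a median of 0.200 over all 18193 genes. It was 1.53 for Btg2, 0.905 for Gadd45a, 0.674 for Trp53inp1 and 0.480 for Gadd45b, which placed these 4 at percentiles 99.8, 99.4, 98.6 and 95.4 of all genes. Ccng1 and Cdkn1a, at 0.305 and 0.290, stood at percentiles 80.2 and 76.9, and Sesn1, Phlda3 and Mdm2, at 0.208, 0.206 and 0.188, were close to the middle. Genes that barely vary because liver does not express them are part of that background, since ratios do not show which genes are expressed. Each SD is of the mean of a gene's probe sets, and single probe sets differed. Sesn1 1438931_s_at stood at percentile 96.3 of all probe sets and 1444376_at at 10.7. Mdm2 1427718_a_at was at 83.1 and 1457929_at at 43.3, and Ccng1 1450016_at at 93.7 and 1450017_at at 41.9.

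**Figure D3:**
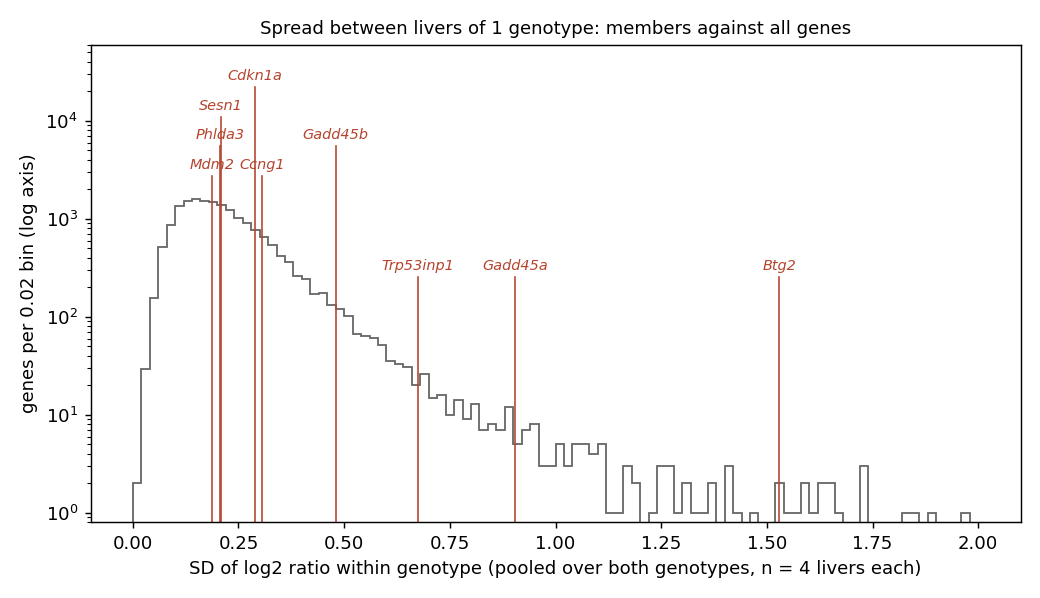
Number of genes (y axis, log scale, per bin of 0.02) by the SD of the log2 ratio within a genotype (x axis; 12 genes beyond 2 are not drawn), with the 9 measured genes marked by vertical lines. Btg2, at 1.53, and Gadd45a, at 0.905, lie far in the right tail, and Mdm2, Phlda3 and Sesn1 lie near the median of 0.200.

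The livers that were high differed between genes. Of the 21 probe sets, txnrd1-/- animal 81 was highest in 8, control animal 80 in 5 and control animal 70 in 4, and control animal 71 was lowest in 6. Animal 81 had the highest Gadd45a, Mdm2, Ccng1 and Sesn1 and the lowest Btg2 and Trp53inp1. Control animal 70 had the highest Btg2 and Trp53inp1, and control animal 80 the highest Cdkn1a and Gadd45b.

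Across the animals Btg2 moved with some of the immediate early genes, a class transcribed within minutes of a stimulus. Fos, a subunit of AP-1, had log2 ratios of 3.32, 1.78, -1.95 and -1.37 in txnrd1-/- livers (animals 69, 72, 73 and 81), against 4.47, -2.05, 0.69 and -2.10 in control livers (animals 70, 71, 80 and 82). The nuclear receptor Nr4a1 had 1.72, 0.47, -0.84 and -0.68 in txnrd1-/- livers, against 3.42, -0.87, 0.85 and -0.86 in control livers. The corresponding values of Btg2 were 1.48, 0.42, -0.62 and -1.42 in txnrd1-/- livers, against 2.83, -0.60, 0.88 and -1.08 in control livers. All 3 were above 0 in animals 69, 72, 70 and 80 and below 0 in the other 4, and this division holds 2 livers of each genotype. Genes outside the immediate early list also shared this division, among them Gadd45g, Per1 and Mt1. Gadd45g, a further growth arrest gene, had log2 ratios of 2.24, 0.54, -0.88 and -1.45 in txnrd1-/- livers, against 2.21, -2.53, 1.60 and -1.81 in control livers. Other genes of those lists did not share it, such as the clock gene Dbp, at -1.74 in animal 80. As the mean of its probe sets, Trp53inp1 shared the division only in part. Its log2 ratios were 0.79, 0.43, 0.03 and -0.50 in txnrd1-/- livers, against 1.36, -0.19, -0.04 and -0.29 in control livers. It was highest in animals 70 and 69 but did not follow the division in animals 73 and 80. Over the list of 15 immediate early genes, all measured, animal 70 was highest for 13, and 15 of 15 were above 0 in animals 69 and 70. Fewer were above 0 in animals 72 (10) and 80 (9), and some were in animals 81 (6), 82 (2), 73 (1) and 71 (1). Not every gene of the list shared the division of Btg2. Egr1 was at 0.36 in animal 71 and -0.85 in animal 80, and Junb at -0.13 in animal 72 and -1.16 in animal 80. The median log2 ratio of the list was 0.88, 0.05, -0.41 and -0.13 in txnrd1-/- livers, against 1.65, -0.66, 0.24 and -0.56 in control livers. Between the genotypes 0 of the 15 were called, with a median log2 fold change of -0.09.

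Gadd45a did not follow this pattern, being highest in animal 81, in which only 6 of the 15 immediate early genes were above 0. Other measures also differed by animal. The 9 hybridization controls, which are added to the labelled RNA, had median log2 ratios of 0.29, -0.55, 0.49 and -0.48 in txnrd1-/- livers (animals 69, 72, 73 and 81), against 0.17, -0.63, 0.38 and -0.19 in control livers (animals 70, 71, 80 and 82). With their median as a covariate the log2 fold change of Btg2 was -0.55. The 12 poly-A controls, another set of control probe sets, were highest in animal 81. Their median log2 ratios were 0.54, -0.59, -0.15 and 1.00 in txnrd1-/- livers, against 0.17, -0.48, 0.03 and -0.01 in control livers. The neutrophil protein S100a8 had ratios of 2.77, 1.48, 1.07 and 0.341 in txnrd1-/- livers, against 4.38, 0.767, 0.925 and 0.167 in control livers. It too was highest in animals 70 and 69, as was S100a9. The other measured neutrophil markers did not share this. In animal 69 the log2 ratios of Elane, Mpo, Cxcr2 and Prtn3 were -0.02, -0.18, -0.12 and -0.45. Over the 6 of 7 neutrophil markers measured, the median log2 ratio was -0.07, 0.33, -0.03 and -0.45 in txnrd1-/- livers, against 0.70, 0.02, 0.02 and -0.05 in control livers. The part of these in the spread of Btg2 and Trp53inp1 was not tested.

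**Figure D4:**
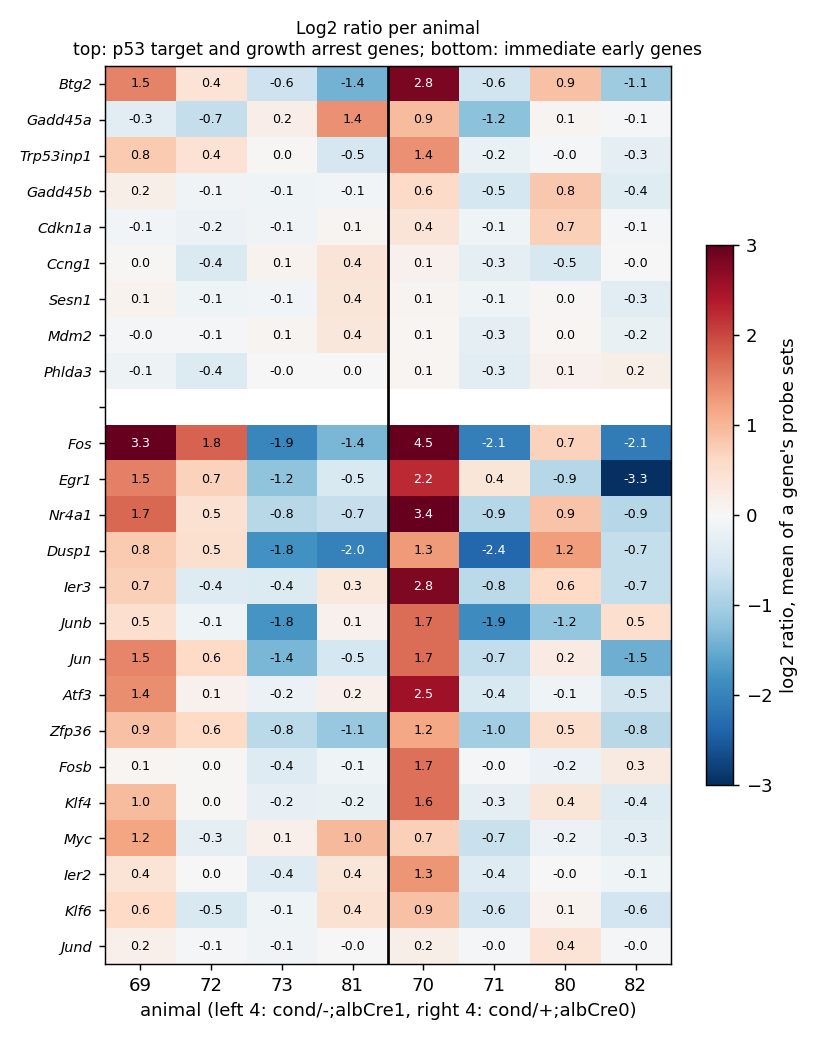
Log2 ratio of each gene (rows) in each liver (columns, txnrd1 cond/-;albCre1 animals on the left of the line and cond/+;albCre0 animals on the right), for the 9 measured genes above and 15 immediate early genes below; red is above and blue below 0. Animals 70 and 69 are red for Btg2, Trp53inp1 and nearly the whole lower block, whereas Gadd45a is highest in animal 81.

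Of 38 further p53 targets 35 were measured, with a median log2 fold change of 0.01, and 34 of them differed by less than 1.5-fold. At the thresholds of the study 1 was higher in txnrd1-/- livers and 0 were lower (background 0.572% and 0.0824%), and after adjustment 0 were called. The 1 was Ephx1, microsomal epoxide hydrolase, which p53 and Nrf2 are both known to activate. Its ratios were 1.18, 1.21, 1.37 and 1.84 in txnrd1-/- livers, against 0.70, 0.652, 0.487 and 0.812 in control livers, and the genotypes did not overlap. Its fold of 2.11 (95% interval 1.58 to 2.82) had an adjusted p of 0.161 by limma over all genes and the smallest possible exact permutation p of 0.0286 (2-sided). Bbc3, which encodes the proapoptotic protein Puma, had a log2 fold change of 0.38 ± 0.16 (SE), under 1.5-fold. Its fold of 1.30 (95% interval 1.01 to 1.68) had an unadjusted p of 0.0429 by limma and an exact permutation p of 0.0857 (2-sided). The genotypes overlapped, at 0.893 to 1.26 in txnrd1-/- livers and 0.699 to 1.11 in control livers. Ephx1 and Bbc3 were the 2 of 35 with an unadjusted p of at most 0.05 by limma, against 2.32% of all genes.

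**Figure D5:**
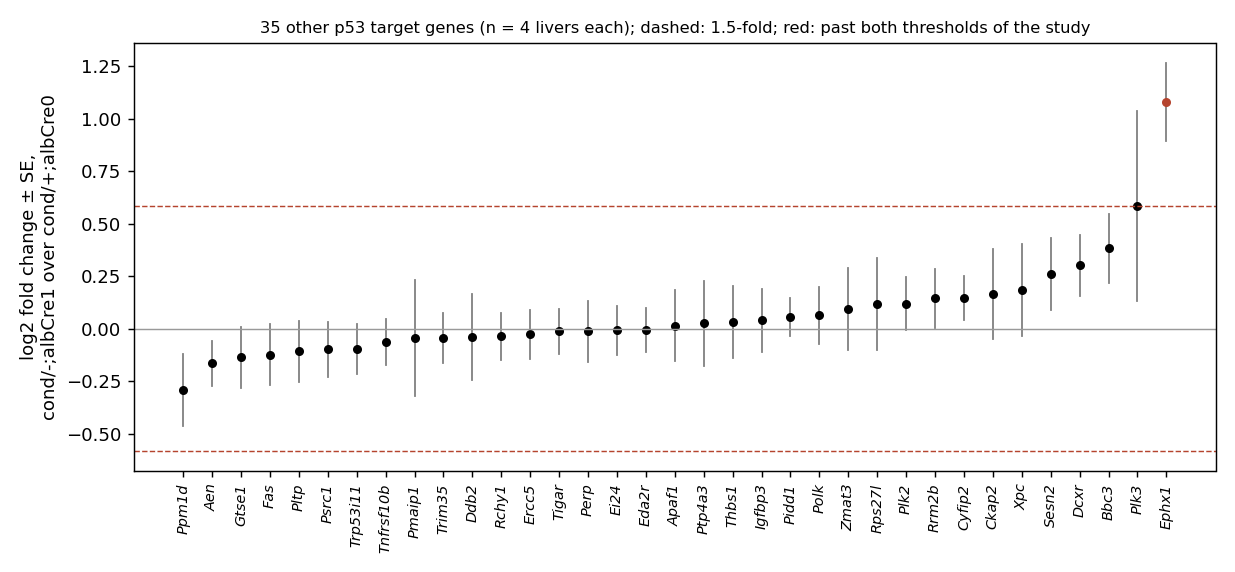
Log2 fold change ± SE of each of 35 further p53 target genes (x axis, ordered by value), txnrd1 cond/-;albCre1 over cond/+;albCre0 (n = 4 livers each), with dashed lines at 1.5-fold. Ephx1, in red at 1.08, is the only one past both thresholds of the study.

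Of 14 genes for p53 and its regulators 13 were measured, among them the kinases Atm and Chek2 and the Mdm2 partner Mdm4. Their median log2 fold change was -0.01, the highest was that of Chek2 at 0.23 ± 0.13 (SE), and 0 were called at either threshold. Trp53 itself is not analysed here. Of 23 further growth arrest genes 22 were measured, with a median of 0.03 and 0 called; Tob1, a relative of Btg2, was at -0.23 ± 0.26 and Ccng2, a relative of Ccng1, at 0.28 ± 0.35 (SE). Of 13 further BCL2 family genes, which control apoptosis as Bax does, 12 were measured, with a median of -0.05, a range of -0.21 to 0.10 and 0 called. In these 3 lists limma gave 0 genes at an unadjusted p of at most 0.05, where 2.32% of all genes had one.

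Markers of the cell types of the liver were read for 9 cell types. Their median log2 fold changes lay between -0.17 (erythroid cells, 2 of 4 measured) and 0.02 (Kupffer cells, 8 of 8), with -0.05 for hepatocytes (8 of 10), and 0 markers were called after adjustment. At the thresholds of the study 1 was called (background 0.654% of all genes), Prtn3, a protease of neutrophil granules. It was at 0.436-fold in txnrd1-/- livers (adjusted p = 1.00 by limma). The other measured neutrophil markers had log2 fold changes from -0.19 (Cxcr2) to 0.38 (S100a8), and the median of the 6 was -0.07. The hepatocyte markers had median log2 ratios between -0.03 and 0.10 in every liver. Ratios do not show whether a marker is present or absent.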

How the data were processed

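Total RNA of 8 livers, from 4 mice of each genotype, was labelled with biotin and read on 1 array per mouse. The values deposited by the authors are linear ratios with each array's median between 0.997 and 0.999. Their methods name GeneSpring and the submitters' processing notes name RMA, with no version given in the sources used here. The study's signal minimum could not be applied to ratios. Log2 ratios were compared with limma 3.58.1 in R 4.3.3 by a 2-sided moderated test with 6 residual degrees of freedom, and p-values were adjusted by Benjamini and Hochberg over all 45037 probe sets or 18193 genes. Adjusted calls also need 1.5-fold. For a gene, the probe sets that carry its symbol alone were averaged, out of 34945 of that kind; 5 empty values were left empty. Folds compare geometric means, whereas each mean ± SD is on the linear scale. With 1 array per mouse, precision is set by the number of arrays.

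The members, the 7 pathway and 9 marker lists and the tests were chosen with earlier results of these data known. Named genes are all members, list genes past either threshold, Nqo1 and Txnrd1; Bbc3, S100a8 and the other list genes were named after their values were seen. Alternatives were 2 array scalings, 2 other scales, 2 variance models, the range of the animal number, a filter on SD, other probe sets and each animal left out; the hybridization control covariate was added after seeing the data. The code was tested on simulated data. Promoters are RefSeq sequences of GRCm38.p6. Python 3.11.15 and matplotlib 3.10.9 drew the figures.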

Additional observations from a re-analysis of the deposited data

Results flagged for a closer look

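Within each genotype, the highest or lowest liver of each of the 21 probe sets was compared with the other 3 by Dixon's ratio of gap to range on the log2 scale at its 95% critical value, in 42 groups, of which chance flags about 1 in 20. It singled out 3 values, all in control livers. Control animal 70 stood apart for both probe sets of Trp53inp1, at a ratio of 2.759 by 1416926_at, where the other control livers lay between 0.756 and 0.925, and at 2.4 by 1416927_at, where they lay between 0.883 and 1.02. Control animal 71 stood apart for Sesn1 by 1454699_at, at 0.708 where the others lay between 0.985 and 1.033. Btg2 in animal 70 was not singled out, since the control livers were spread over their whole range.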

How the results depend on the processing

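Of 545 recomputed fold changes of member probe sets and genes, 510 kept their direction and 35 reversed; 0 passed the thresholds of the study or the adjusted threshold, and the largest was 1.16 in size on the log2 scale. Without control animal 71, an unadjusted p of at most 0.05 by limma was reached, at less than 1.5-fold, by Cdkn1a 1421679_a_at (-0.54), the gene Cdkn1a (-0.42) and Gadd45b 1420197_at (-0.38). The counts of called member probe sets and of called member genes were 0 under each other setting run for them. The smallest exact permutation p was 0.229 with linear ratios too.

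The background moved more. At the thresholds of the study 393 probe sets were called when only the more variable probe sets were tested, and 206 (without animal 81) to 479 (without animal 72) with one animal left out, and without animal 70 the count was 402. After adjustment the count was 1 with linear ratios, 19 with array weights, 6 in animals 69 to 73 only and 59 when only the more variable probe sets were tested, and 3 to 8 with one animal left out.

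With animals 69 to 73 only, these log2 fold changes reversed: Ccng1 to -0.081 (1420827_a_at), -0.029 (1450016_at) and -0.027 (gene), Gadd45a to -0.15 (probe set and gene), Gadd45b 1420197_at to 0.025, Sesn1 to -0.11 (1433711_s_at), -0.16 (1438931_s_at) and -0.011 (gene), and Trp53inp1 1416926_at to -0.046. The last was -0.018 with the animal number range as a covariate, and the gene Trp53inp1 was 0.19 by its most variable probe set. The cause was not tested.

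With one animal left out, results that reversed ranged as follows. Mdm2 ran over -0.041 to 0.29 (1427718_a_at) and -0.0052 to 0.22 (1457929_at), and Ccng1 1450017_at over -0.0054 to 0.21. Gadd45a ran over -0.22 to 0.53, and Gadd45b over -0.37 to 0.18 (1449773_s_at), -0.57 to 0.052 (1450971_at) and -0.38 to 0.062 (gene). Btg2 ran over -1.16 to 0.21 (1416250_at), -0.99 to 0.26 (1448272_at) and -1.07 to 0.23 (gene). Sesn1 1433711_s_at ran over -0.12 to 0.16. Trp53inp1 ran over -0.082 to 0.62 (1416926_at), -0.38 to 0.11 (1416927_at) and -0.22 to 0.37 (gene).

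No paired analysis was possible because the animal numbers are not shared between the genotypes. Including probe sets with several symbols gave no other value, since 0 of them name a member. Ephx1 stayed past the thresholds of the study in every setting, with log2 fold changes of 0.94 to 1.19 when one animal was left out. The number of arrays, and for Btg2, Gadd45a and Trp53inp1 the spread between livers, limit what could be seen.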

Other observations

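Genes of the response to glucocorticoids and fasting and genes of the circadian clock were not called between the genotypes. All 10 of the first list were measured, with a median log2 fold change of -0.06. Sgk1, a kinase that glucocorticoids induce, had log2 ratios of 1.15, -0.10, -0.29 and -0.08 in txnrd1-/- livers (animals 69, 72, 73 and 81), against 1.40, 0.09, 1.42 and -0.41 in control livers (animals 70, 71, 80 and 82). The metallothionein gene Mt1 had 1.51, 0.42, -0.70 and -0.28 in txnrd1-/- livers, against 1.58, -1.16, 0.17 and -1.69 in control livers. Both were high in animals 69 and 70, and Sgk1 was highest in animal 80. Of 16 clock genes 15 were measured, with a median of -0.02 and 0 called, and Cry1, a repressor of the clock, had the lowest estimate at -0.58 ± 0.29 (SE).

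Markers of proliferating cells were low in 1 liver of each genotype. The cyclin gene Ccna2 had log2 ratios of 0.29, -1.02, 0.33 and 0.00 in txnrd1-/- livers, against -0.05, 0.01, 0.02 and -1.46 in control livers, so that animals 72 and 82 were the low ones. The median over the 6 of 7 measured markers was also lowest in these animals, at -0.73 in txnrd1-/- animal 72 and -1.12 in control animal 82. As the mean of its probe sets, Cdkn1a had log2 ratios of -0.17 in animal 72, its lowest value in the 8 livers, and -0.06 in animal 82. Its probe sets disagreed in animal 72. The ratio there was 0.758 by 1421679_a_at but 1.04 by 1424638_at, the highest of the txnrd1-/- livers by that probe set.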
